A study of Ulmus pumila with 3 samples.

Results

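The miR164 family of Siberian elm (Ulmus pumila) was followed in 3 small RNA libraries from the roots of wild-type seedlings 30 days old. One library came from seedlings without salt stress (control), another from seedlings under 50 mM NaCl for 6 h, and the last from seedlings under 200 mM NaCl for 24 h. The family was taken by name: every miRNA listed with the family number miR164, which gave 8 names, upu-miR164a to upu-miR164h, of 309 in the whole series. The prefix upu, which stands for elm, is mostly left off in what follows. All 8 were listed in every library. With a minimum of 20 counts in 1 of the libraries compared, all 8 could be compared with control, and 3 of them between the salt libraries. Each condition has 1 library, so there is no spread between replicates, and conditions were compared without a test or p-value. The 95% intervals given here cover counting error within libraries only. Dose and duration cannot be told apart, as the salt libraries differ in both, and the labels do not say how many seedlings went into a library.

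miR164 is a conserved plant miRNA that pairs almost end to end with transcripts of a small set of NAC transcription factors and directs their cleavage. In Arabidopsis these include the CUP-SHAPED COTYLEDON genes, which set organ boundaries, NAC1, which carries auxin signals to lateral root formation, and ORE1, a regulator of leaf senescence. In Arabidopsis roots, less miR164 is known to go with more NAC1 transcript and more lateral roots. The tables hold miRNAs and no transcripts of target genes, so the level of NAC factors in these roots, and the tissue itself, could not be checked against marker genes.

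The sequences are shown for all members because they decide which names can be told apart. They are written 5′ to 3′ as deposited, with the seed (bases 2 to 8) in capitals.
upu-miR164a: uGGAGAGGcagggcacaugcu
upu-miR164b: uGGAGAAGcagggcacgugaa
upu-miR164c: uGGAGAAGcagggcacgugag
upu-miR164d: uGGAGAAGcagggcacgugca
upu-miR164e: uGGAGAAGcagggcacgugc
upu-miR164f: uGGAGAAGcagggcacgugcg
upu-miR164g: uGGAGAAGcagggcacgugcu
upu-miR164h: uGGAGAAGcagggcacgugug

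The 8 sequences have 2 seeds. The seed GGAGAGG belongs to miR164a alone and the seed GGAGAAG to the 7 names miR164b to miR164h. No name of another family in the tables had either seed, and none overlapped a miR164 name by 16 nt or more with up to 2 mismatches on either strand. With positions counted from 1 at the 5′ end and the base of miR164a first, miR164g differed from miR164a by G7A and A17G, and every other name carried these 2 changes as well. The names miR164b to miR164h share their first 19 bases and part only at the last 1 or 2. With miR164d as the base, miR164b carries C20A, miR164f A21G and miR164g A21U, while miR164e lacks base 21. All 8 start with U, as do 63.4% of the 309 names, and 7 of the 8 are 21 nt long, the length of 63.4% of all names.

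The counts follow these 3′ ends only in part. miR164b and miR164c had the same 33 counts in the control library, 21 and 20 at 50 mM, and 10 each at 200 mM. miR164d to miR164h had 27 counts each in the control library, 16 or 17 at 50 mM and 7 each at 200 mM. The tables do not say how a read was given to a name, and names of near-equal counts were not taken as separately counted molecules. The 8 names were read as 3 groups, each counted once through its most counted name. These are miR164a, miR164b with miR164c, and miR164d with miR164e to miR164h. The same joining over the whole series left 201 of the 309 names.

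The family was of low abundance in these roots. Summed counts of all names in a library ran from 449522 to 545587, so that 1 read was worth 1.83 to 2.22 RPM (reads per 1000000 counts of all names). These totals are sums over names; the sequencing depth itself is unknown. Counted once, miR164 had 100 counts in the control library, 84 with 50 mM NaCl and 44 with 200 mM. This made 196 RPM in the control library, with an exact binomial interval of 160 to 239. The 50 mM library had 187 RPM (149 to 231) and the 200 mM library 80.7 RPM (58.6 to 108). The intervals of the control and 50 mM libraries overlap nearly whole, and that of the 200 mM library lies below both. Among the 46 families, each with near-equal names counted once, miR164 ranked 22nd by level in the control and 50 mM libraries and 24th at 200 mM. A family here is any miR number listed, conserved or not. Names were joined only within a number, so miR1511, miR5139 and miR8155, with the same counts, stand as separate families. In bulk root RNA, fewer cells that make a miRNA and less of it per cell cannot be told apart.

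upu-miR164a was the most counted name of the family in all 3 libraries. It had 40 counts in the control library, or 78.5 RPM (exact Poisson interval 56.1 to 107). At 50 mM it had 46 counts, or 102 RPM (74.9 to 136), and at 200 mM 27 counts, or 49.5 RPM (32.6 to 72.0). The level was highest at 50 mM and lowest at 200 mM, with the control library between them and overlapping both. By count it ranked 134th of 293 names in the control library, 120th of 283 at 50 mM and 139th of 281 at 200 mM.

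upu-miR164b, read together with upu-miR164c, stood at 64.8 RPM in the control library (44.6 to 91.0), at 46.7 RPM with 50 mM NaCl (28.9 to 71.4) and at 18.3 RPM with 200 mM (8.79 to 33.7). upu-miR164d, read together with miR164e to miR164h, stood at 53.0 RPM in the control library (34.9 to 77.1), at 37.8 RPM with 50 mM NaCl (22.0 to 60.6) and at 12.8 RPM with 200 mM (5.16 to 26.4). Unlike miR164a, both groups had their highest level in the control library. For both, the 200 mM interval lies below that of the control library and overlaps that of the 50 mM library.

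**Figure D1:**
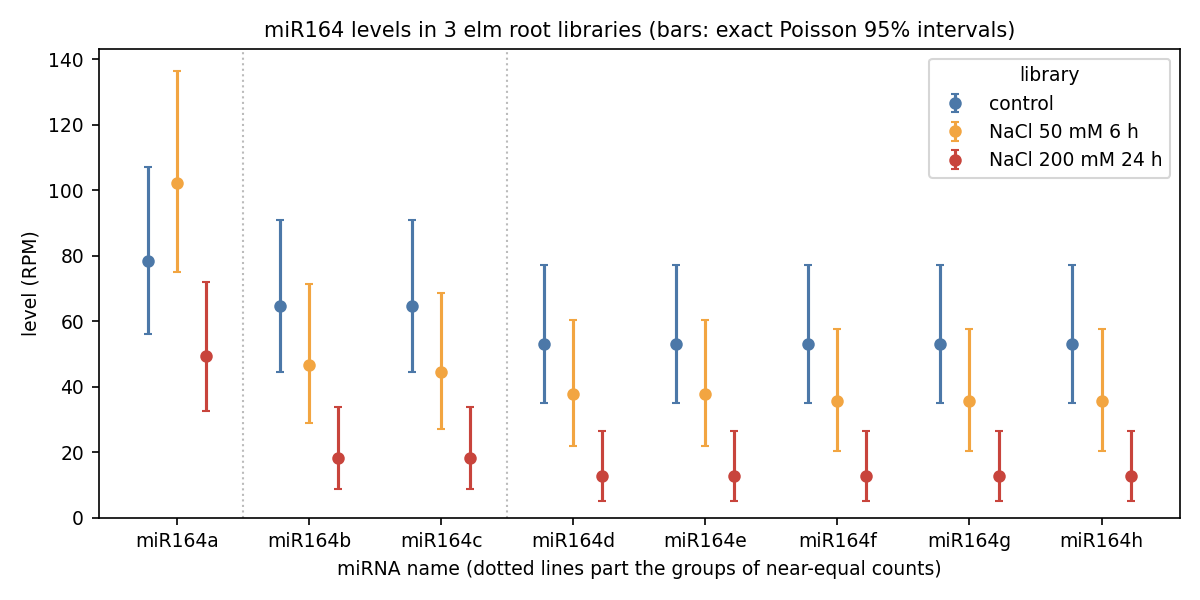
Level of each miR164 name in RPM (y axis) in the control, 50 mM and 200 mM libraries (points, 1 library each, with exact Poisson 95% intervals); dotted lines part the 3 groups of near-equal counts. miR164a is highest at 50 mM, at 102 RPM, while miR164b to miR164h are highest in the control library, and all 8 names are lowest at 200 mM.

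After 6 h at 50 mM NaCl, the family as a whole was close to the control library. Counted once, it had a ratio of RPM of 0.952 (0.703 to 1.28, 84 counts against 100). A name was called higher or lower where it was listed in both libraries, reached 20 counts in 1 of them, and had a ratio of at least 2 either way with an interval leaving out 1. None of the 8 miR164 names was called, where 1.85% of the 162 names compared were called higher and 3.09% lower. The names divided in direction without any passing this rule. miR164a had 102 RPM at 50 mM against 78.5 RPM in the control library, a ratio of 1.30 (0.834 to 2.04).

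For miR164b, 46.7 RPM at 50 mM against 64.8 RPM in the control library gave a ratio of 0.721 (0.396 to 1.28). The ratios of miR164c to miR164h lay between 0.671 and 0.713, and each interval included 1. The median log2 ratio of the 8 names was −0.51, beside −0.08 over all 162 names, though 5 of the 8 hold nearly the same counts. The counts limit what could be seen here. With 27 counts in the control library, miR164d would have had to stand at 11 counts or fewer at 50 mM to be called lower, and it had 17. For miR164a, with 40 control counts, the limit was 17 or fewer.

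After 24 h at 200 mM NaCl, miR164 stood at well under its control level. Counted once, the family had 80.7 RPM at 200 mM and 196 RPM in the control library, a ratio of 0.411 (0.281 to 0.591), which is 2.43-fold lower. With miR164b to miR164h taken as 1 group, in case their 2 groups share reads, the ratio was 0.473 (0.310 to 0.712). Of the 8 names, 7 were called lower and none higher, against a background of 16.7% called lower and 3.57% higher among 168 names compared. The 7 are themselves part of that background, and outside the family 21 of 160 names, or 13.1%, were called lower. All 7 reached the count minimum only in the control library, where they were higher. Entry through that library favours low ratios and lower calls. With no minimum, and a count of 0 set at 3, 32 of 308 names were called lower, 7 of them miR164 names. Those 308 include names with too few counts to be called. With near-equal names counted once, 2 of 3 miR164 groups were called lower, beside 17 of 118 names in all (14.4%). The median log2 ratio was −2.05 over the 8 names and −0.40 over all compared names, but 5 of the 8 have identical counts and set that median. The 3 groups had −0.67 (miR164a), −1.82 (miR164b) and −2.05 (miR164d), and the family counted once −1.28.

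miR164d had 7 counts at 200 mM against 27 in the control library, a ratio of 0.242 (0.0890 to 0.570), or 4.13-fold lower (1.76 to 11.2). Its group, miR164d to miR164h, shared the 3rd lowest ratio of the 168 names with 2 names of miR171, miR171k and the 21-nt sequence named miR171g. miR164b had 10 counts at 200 mM against 33 in the control library, a ratio of 0.283 (0.124 to 0.588), or 3.53-fold lower (1.70 to 8.04). Its position, shared with miR164c, was 11th from the lowest.

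miR164a was the name that was not called in this comparison. Its 27 counts at 200 mM against 40 in the control library gave a ratio of 0.630, 47th from the lowest, and its interval of 0.372 to 1.05 took in 1. It would have been called lower at 21 counts or fewer. All miR164 calls in this comparison thus fell on names with the seed GGAGAAG, printed above, which hold 2 groups of near-equal counts.

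**Figure D2:**
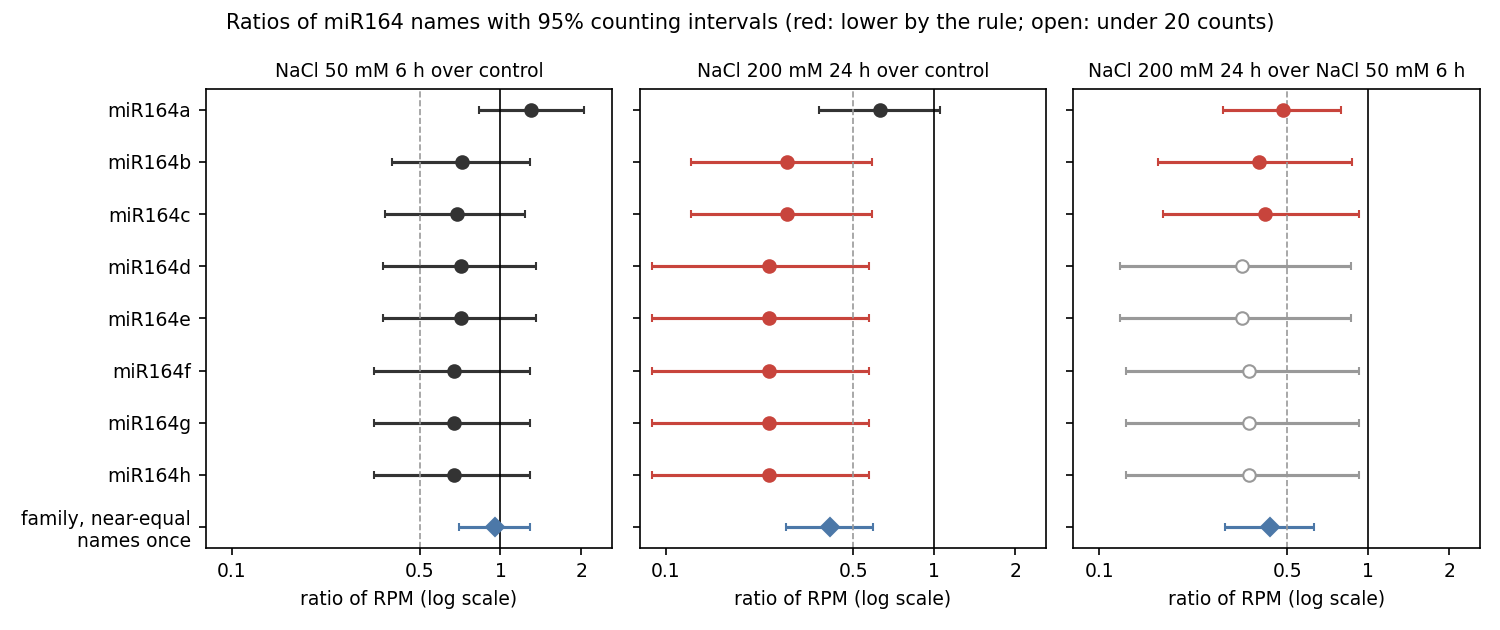
Ratio of RPM (x axis, log scale) of each miR164 name and of the family with near-equal names counted once (diamonds) in the 3 comparisons, with 95% counting intervals; red marks names called lower, open points names under 20 counts in both libraries, the solid line a ratio of 1 and the dashed line 0.5. At 200 mM over control, miR164b to miR164h lie at 0.242 to 0.283 and miR164a at 0.630.

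**Figure D3:**
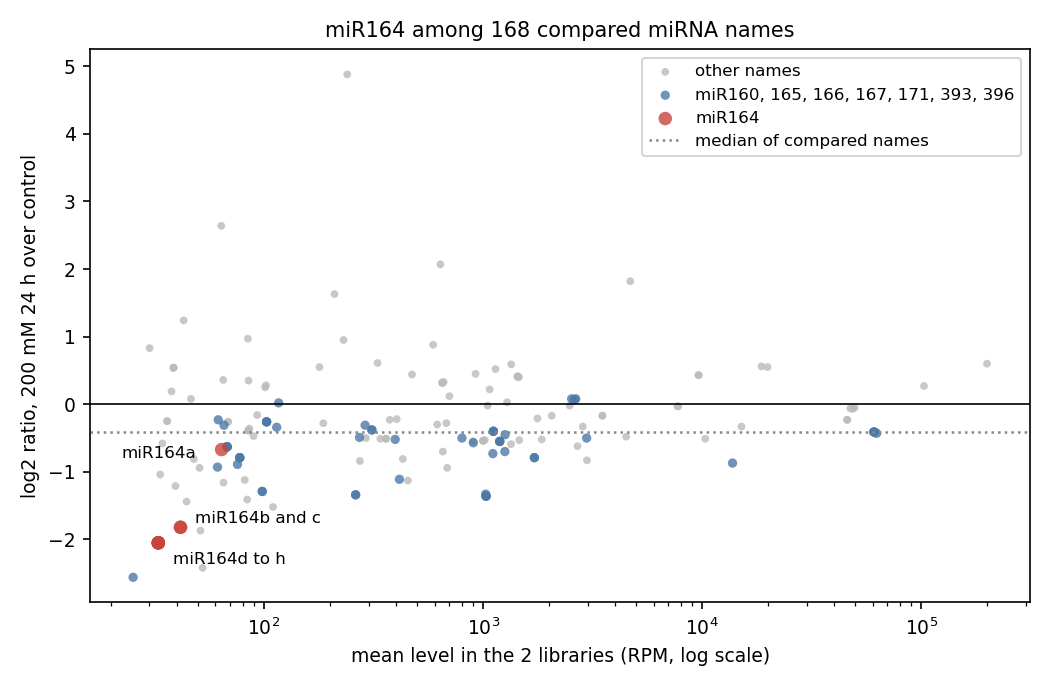
Log2 ratio of 200 mM 24 h over control (y axis) against the mean level of both libraries in RPM (x axis, log scale) for the 168 compared names, with miR164 in red, the other root families in blue and the rest in grey. The miR164 names lie at the low-abundance end, where grey points also spread widely, and miR164b to miR164h lie well below the dotted median of −0.40.

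The median of all compared names at 200 mM over control was below 0, so the choice of scaling bears on how far below control the family stood. With TMM factors (trimmed mean of M values), every log2 ratio of this comparison moved up by 0.34, and median-of-ratios factors moved it up by 0.36. Over all names, the 6 higher and 28 lower calls became 10 higher and 20 lower under TMM scaling, and 10 higher and 15 lower under median-of-ratios scaling. The family ratio was 0.519 (0.355 to 0.746) under TMM scaling and 0.529 (0.362 to 0.761) under median-of-ratios scaling. Both intervals still leave out 1, but neither ratio reaches the 2-fold size. The same 7 names were called lower with either scaling, where the background was 11.9% (TMM) and 8.93% (median of ratios).

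Between the salt libraries, miR164 was again lower in the stronger and longer treatment. The family counted once had 80.7 RPM at 200 mM and 187 RPM at 50 mM, a ratio of 0.432 (0.293 to 0.629). Only miR164a, miR164b and miR164c reached 20 counts in 1 of these libraries, and all 3 were called lower. miR164b and miR164c, at 21 and 20 counts, reached the minimum only in the 50 mM library, where they were higher. Entry through that library favours a lower call. The background was 18.9% of 159 names called lower and 6.29% higher. With near-equal names counted once, 2 of 2 miR164 groups were called lower, beside 21 of 114 names in all. miR164a had 49.5 RPM at 200 mM and 102 RPM at 50 mM, a ratio of 0.484 (0.289 to 0.795). It was thus called lower against the 50 mM library, where its level was highest, and not against the control library.

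miR164b had 10 counts at 200 mM against 21 at 50 mM, a ratio of 0.392 (0.165 to 0.871). miR164d to miR164h were not compared under the rule, with 7 counts at 200 mM against 16 or 17 at 50 mM, and had ratios of 0.339 to 0.360. With a minimum of 10 counts all 8 names, which make 3 groups of near-equal counts, were called lower. Over all names 41 of 179 (22.9%) were, these 8 among them. These calls did not hold under other scalings. With every log2 ratio moved up by 0.28 (TMM) or 0.30 (median of ratios), 0 of the 3 compared names were called lower (background 12.6% and 11.9%). There miR164a had ratios of 0.587 (0.351 to 0.964) and 0.597 (0.357 to 0.980), and miR164b had 0.476 (0.200 to 1.06) and 0.484 (0.204 to 1.07). With miR159a, the most counted miRNA, left out of the totals, 2 of the 3 were called lower (background 15.7%), and miR164a was not, at 0.521 (0.312 to 0.856). The family ratio was 0.524 (0.355 to 0.763) under TMM scaling and 0.533 (0.361 to 0.776) under median-of-ratios scaling. Over all names, the 10 higher and 30 lower calls became 13 and 20 under TMM scaling, and 13 and 19 under median-of-ratios scaling.

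Within a library, the ratio of 1 member to another depends on no scaling. For each count of miR164a the control library had 0.825 counts of miR164b, the 50 mM library 0.457 and the 200 mM library 0.370. For miR164d the control library had 0.675, the 50 mM library 0.370 and the 200 mM library 0.259. miR164a thus took a larger part of the family in both salt libraries. Of the counts of the 3 groups, miR164a held 40.0% in the control library, with an exact binomial interval of 30.3% to 50.3%. It held 54.8% in the 50 mM library (43.5% to 65.7%) and 61.4% in the 200 mM library (45.5% to 75.6%).

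For miR164b per miR164a and miR164d per miR164a, taken singly, the difference was within counting error for each pair of libraries. No interval was computed for the change in the share of miR164a among the 3 groups, whose counts may hold shared reads. The amount of miR164b per miR164a at 50 mM was 0.553 of that in the control library (0.261 to 1.17). At 200 mM it was 0.449 of that in the control library, and its interval of 0.169 to 1.14 again took in 1. The amount of miR164d per miR164a, relative to control, was 0.547 at 50 mM, with an interval of 0.243 to 1.22. At 200 mM it was 0.384 of control, with an interval of 0.124 to 1.08. By these ratios, miR164a being uncalled at 200 mM while miR164b to miR164h were called lower does not show that the 2 seeds responded differently. Both salt values are set against the same control library. Between the salt libraries, miR164b per miR164a at 200 mM was 0.811 of that at 50 mM (0.295 to 2.13).

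**Figure D4:**
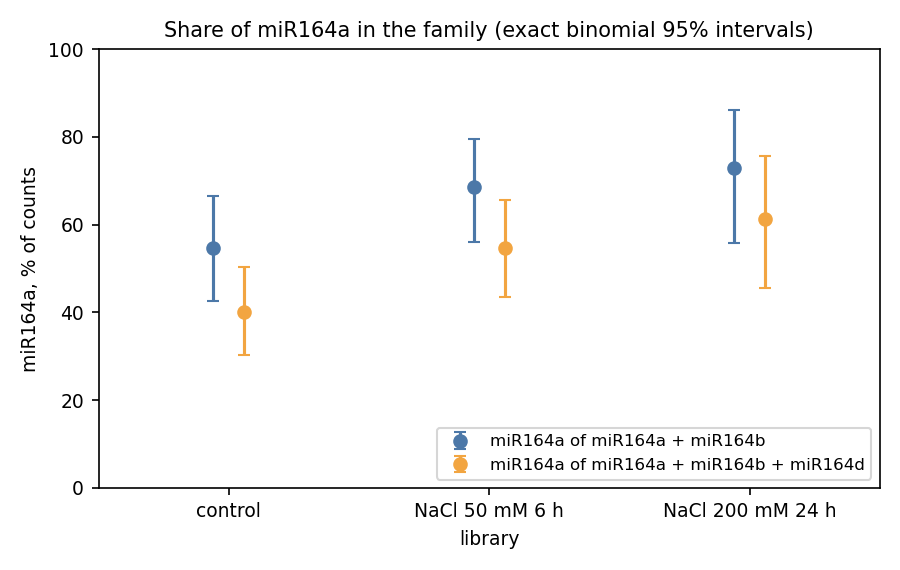
Share of miR164a (y axis, percent of counts) among miR164a and miR164b (blue) and among miR164a, miR164b and miR164d (orange) in the 3 libraries, with exact binomial 95% intervals. The orange share is 40.0% for control, 54.8% for 50 mM and 61.4% for 200 mM, and the intervals of neighbouring libraries overlap.

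Other miRNA families with targets in root development were set beside miR164, with 1 control library shared by both salt comparisons. The list holds miR160 and miR167, both directed at auxin response factors, miR393, which targets TIR1/AFB auxin receptors, miR165 and miR166, which target HD-ZIP III factors of vascular patterning, miR171, which targets GRAS factors, miR396, which targets growth-regulating factors, and miR390, which triggers small RNAs against auxin response factors. No name in the tables has the number miR390. At 50 mM over control, 0 of the 56 compared names of these families were called higher and 1 lower, which is 1.79% beside 3.09% of all names. At 200 mM over control, 0 of 56 were called higher and 12 lower, or 21.4% beside 16.7% of all names, with 5 of 6 miR160 names, 6 of 11 miR171 names and 1 of 16 miR166 names. The 12 were 8 under TMM scaling and 3 under median-of-ratios scaling, where 0 were of miR160. The family ratios there were close, at 0.529 for miR164 and 0.556 for miR160. Between the salt libraries, 14 of 55 names of these families were called lower, or 25.5% beside 18.9% of all names. There 5 of 6 miR160 names were called lower under each of the 3 scalings (total, TMM, median of ratios), while the miR164 calls went to 0 of 3 under TMM and median-of-ratios scaling. The called miR160 names had 298 to 754 counts at 50 mM and the compared miR164 names 20 to 46, so their counting error is unlike. These shares count every name, also where counts are near-equal. Such counts are held by miR160a to miR160d, and the 6 called miR171 names come in pairs of the same counts. The median log2 ratio of the 56 names was −0.17 at 50 mM and −0.56 at 200 mM.

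The miR164 family ratio at 200 mM over control was the 2nd lowest of 32 families compared, between miR172 at 0.346 (0.149 to 0.737) and miR160 at 0.432 (0.388 to 0.481). The intervals of these 3 families overlap, so their order is not resolved. That of miR164 also overlaps those of miR5072 at 0.446 (0.256 to 0.757), miR8175 at 0.456 (0.374 to 0.555) and some families with higher ratios. The place also depends on the counting. With miR164b to miR164h taken as 1 group, the miR164 ratio of 0.473 would lie above those of miR160, miR5072 and miR8175. At 50 mM over control miR164 was 13th from the lowest of 29 families, in the middle of the order. miR393 had a ratio of 1.72 there (1.36 to 2.18), with 0 of its 4 compared names called higher, and miR167 one of 0.833 (0.802 to 0.864). Between the salt libraries, miR164 at 0.432 was the 3rd lowest of 31, after miR399 at 0.353 (0.295 to 0.422) and miR160 at 0.379 (0.340 to 0.422). Its interval of 0.293 to 0.629 overlaps both of theirs and those of some families with higher ratios, such as miR393 at 0.530 (0.416 to 0.672). This place is therefore not resolved either.

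**Figure D5:**
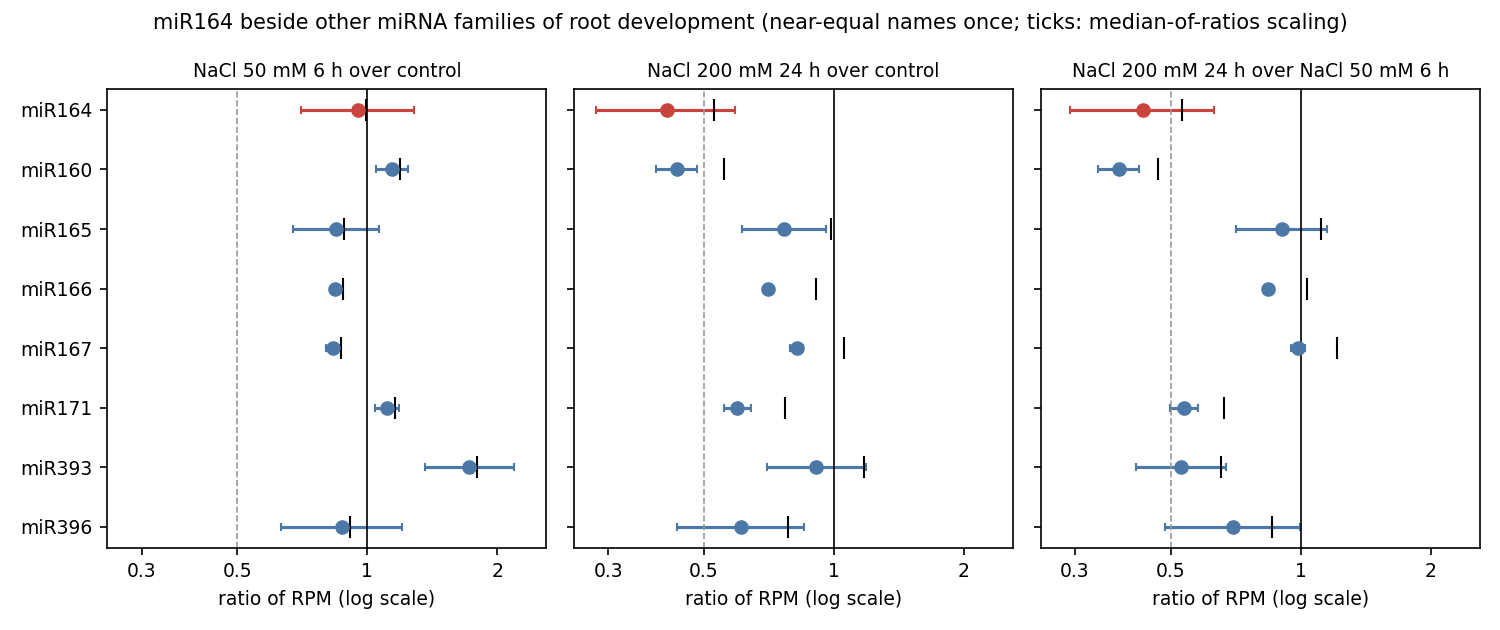
Ratio of RPM (x axis, log scale) of miR164 (red) and 7 other root-development families (blue), near-equal names counted once, in the 3 comparisons with 95% counting intervals; black ticks show the ratio with median-of-ratios scaling, the solid line a ratio of 1 and the dashed line 0.5. At 200 mM over control, miR164 at 0.411 and miR160 at 0.432 are the lowest of the 8.

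By pattern over the 3 libraries, the names outside the family most like miR164 as a summed family came from miR171 and miR160, with 1 new miRNA. Likeness was the distance between the pair of log2 ratios to control, over 116 names listed in all 3 libraries with at least 20 counts in 1, near-equal names counted once. The pair was −0.07 at 50 mM and −1.28 at 200 mM for the miR164 family counted once, a sum that no single group matches. miR164a had 0.38 and −0.67, miR164b −0.47 and −1.82, and miR164d −0.49 and −2.05. The name miR171g is used for 2 sequences, and the nearest was the one of 20 nt.
miR171g: uGAUUGAGccgugccaauau

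This miR171g had 71 counts under control conditions, 65 with 50 mM NaCl and 31 with 200 mM, with log2 ratios of 0.05 and −1.29 and a distance of 0.12. miR171e followed at a distance of 0.16, the arm new-9-3p of a hairpin named by the authors as new at 0.26, miR160d at 0.27 and miR160e at 0.34. With 3 libraries, and both ratios set against 1 control library, such a distance is a description of these counts only.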

How the data were processed

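Small RNA from roots was sequenced, 1 library per condition; Trizol extraction and an NEBNext small RNA kit for Illumina were used, per the labels' protocols. The authors deposited whole-number read counts for each miRNA name, per the file headers. The authors' deposited TPM column is RPM: on each of the 293, 283 and 281 names listed in the control, 50 mM and 200 mM tables it equals, within 0.001, the count per 1000000 of the table's summed counts, with no length term. How reads were trimmed, aligned and assigned to names, with which reference and strand rule: not given in the sources used here. A name missing from a library counted as 0 there.

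Names that shared 16 nt or more, on the same or the opposite strand with up to 2 mismatches, and whose counts were within 5% or 3 reads in each library, were counted once, through the most counted. Totals stayed those of all names. Ratios of RPM have exact conditional binomial (Clopper-Pearson) 95% intervals, and levels exact Poisson or binomial ones, for counting error only, since amplified reads are not independent molecules. Where family groups share reads, the family interval is too narrow. No count model was tested, as no group has replicates; edgeR 4.0.16 gave TMM factors and DESeq2 1.42.0 median-of-ratios factors as alternatives. Python 3.11.15 and SciPy 1.17.1 were used.

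The named miRNAs are all 8 members, the 5 names most like the summed family in pattern, and the root-development families. Members, lists and rules were chosen with earlier results of these data known. miR172, miR399, miR5072 and miR8175 were named after their values were seen.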

Additional observations from a re-analysis of the deposited data

How the results depend on the processing

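The family ratio kept its direction and stayed within its own interval under every alternative tried at 200 mM over control (0.318 with all 8 names summed to 0.529 with median-of-ratios factors) and between the salt libraries (0.400 to 0.533). At 50 mM over control it ran from 0.794 with all 8 names summed to 0.992 with median-of-ratios factors, and was 1.04 with miR164b to miR164h counted once, an alternative chosen after seeing the data. That alternative gave 0.473 (0.310 to 0.712) at 200 mM over control and 0.455 (0.296 to 0.690) between the salt libraries. All 72 ratios of single miR164 names under other scalings stayed within their intervals. Calls over all names moved more. At 50 mM over control, 3 of 162 names were called higher, but 8 of 307 with no count minimum and 6 of 185 with a minimum of 10. At 200 mM over control, 6 were higher, but 10 with TMM and 10 with median-of-ratios factors, and 28 were lower, but 20 with TMM factors, 15 with median-of-ratios factors and 17 with near-equal names counted once. Between the salt libraries 30 of 159 were lower, but 19 with median-of-ratios factors. With a minimum of 10 counts 41 of 179 were lower there, and with no minimum 41 of 307. The share of higher among called names at 200 mM over control, 6 to 28, was 10 to 20 with TMM factors. TMM factors move every log2 ratio of this comparison up by 0.34, which can only add higher calls and remove lower ones. Why the factors differ between the libraries was not tested. No paired analysis was possible because each group has 1 library. Counts of 7 to 46 per name limit what could be seen of the family.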
